A study of Arabidopsis thaliana with 3 samples.

Results

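The UDP-glycosyltransferase (UGT) genes of Arabidopsis thaliana were described here by family and subfamily in the vascular tissue of cotyledons. A member was any gene whose current symbol is UGT followed by a number, and 51 of 16505 measured genes met this rule. The symbol gives the family number and the subfamily letter, so that UGT73B5 belongs to family 73 and subfamily 73B. The 51 genes fell into 12 families and 23 subfamilies, and 4 families had 1 member each.

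UGTs are enzymes that move a sugar from a nucleotide sugar, most often UDP-glucose, onto small acceptor molecules. The acceptors include plant hormones, flavonoids, lignin precursors, precursors of glucosinolates and foreign chemicals, and the added sugar commonly makes the acceptor inactive, more soluble or fit for storage. Several subfamilies lie in the genome as runs of neighbouring copies.

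The study compared 3 states of the pathway of CEP1, a peptide hormone made by nitrogen-starved roots and perceived in the shoot by the receptor CEPR1. One array held wild type seedlings grown for 8 days on medium without the peptide, the control. One held wild type grown for the same time with 1 µM CEP1 in the medium throughout, and one held the receptor mutant cepr1-1 grown without the peptide. Each RNA was pooled from the hand-collected vascular strands of 200 cotyledons and hybridised to 1 Affymetrix Arabidopsis Gene 1.0 ST array, so there were no replicates and no test was possible.

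Every value below is a log2 probe set value, and every difference is taken against the control, so that a positive one means higher with CEP1 or in cepr1-1. The medians over measured genes were 3.07, 3.07 and 3.11 on the control, CEP1 and cepr1-1 arrays, and a gene was counted above the floor of a comparison where the brighter of its 2 arrays was at or above its median. Both comparisons share the control array, so an error in the control enters both. The phloem sugar exporter gene SWEET11 lay at 11.5 on each array and the phloem gene OPS at 2.91, under the median, on all 3. Of 10 phloem markers, 2 had a named probe set, and none of 9 xylem markers did. In whole tissue, fewer cells of a type and less RNA per cell cannot be told apart. The probe set of CEPR1 was not analysed here, so the mutant label was not checked.

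Values of different probe sets cannot be ranked strictly against each other. Levels are given as positions against the array median, which share this limit. Of the 51 UGT genes, 22 were at or above the median on all 3 arrays (43.1%, against 49.1% of measured genes), 25 were below it on all 3 (49.0%, against 47.3%), and 4 lay on different sides on different arrays. Among the 4, UGT78D3 was 3.07 on all 3 arrays, equal to the control and CEP1 medians and under the cepr1-1 median. The tie also placed it above the floor in both comparisons.

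**Figure D1:**
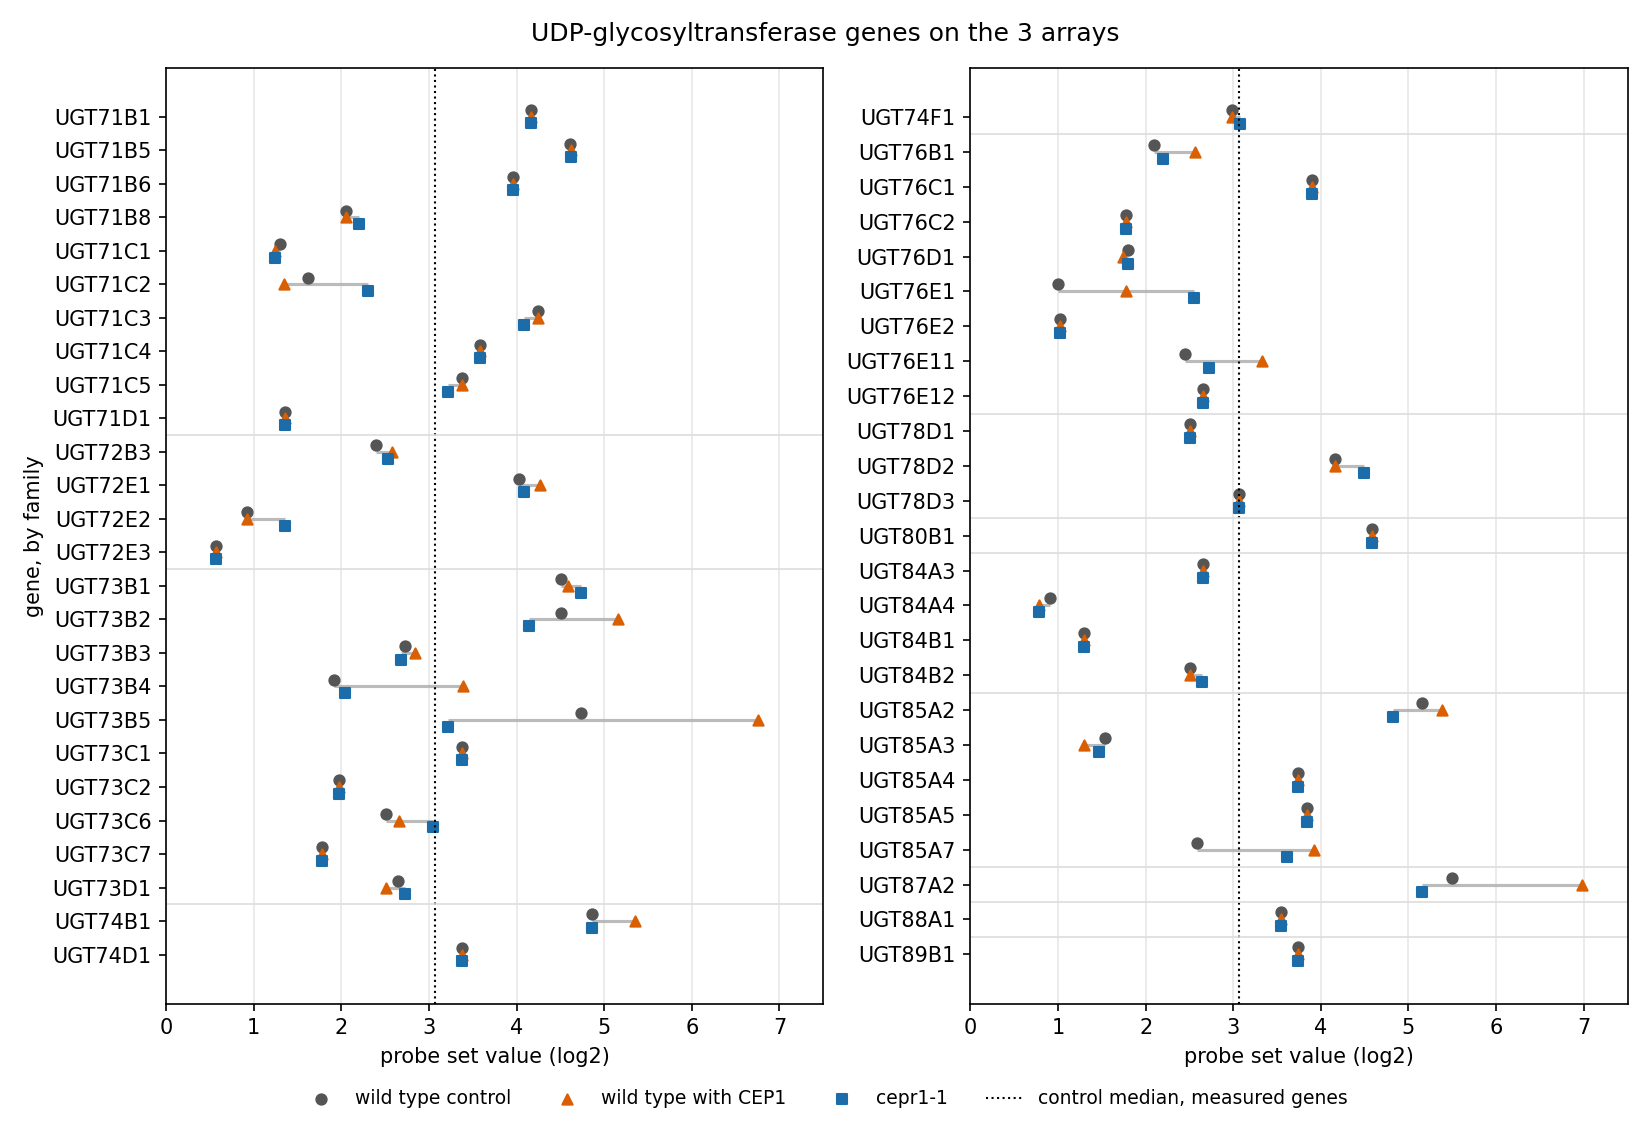
Log2 probe set values (x axis) of the 51 UGT genes (y axis, grey lines part the families) on the control (circles), CEP1 (triangles) and cepr1-1 (squares) arrays, 1 array each, with a dotted line at the control median of 3.07. The 3 symbols coincide for 22 genes, and the widest span is that of UGT73B5, from 3.22 to 6.76.

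With CEP1, 7 of the 51 genes were at least 1.5-fold higher than in the control (13.7%) and none was that much lower, whereas 0.994% of all measured genes were at least 1.5-fold higher and 0.836% lower. The 7 were UGT73B2, UGT73B4, UGT73B5, UGT76E1, UGT76E11, UGT85A7 and UGT87A2. In cepr1-1, 3 genes were at least 1.5-fold higher (5.88%), against 1.58% of measured genes, and 1 was lower (1.96%), against 1.39%. The higher genes were UGT71C2, UGT76E1 and UGT85A7, and the lower gene was UGT73B5.

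These counts rest in part on low values. With a pseudocount of 16, which lessens the weight of low values, 5 of the 7 CEP1 differences fell short of 1.5-fold: UGT73B2 (0.41), UGT73B4 (0.42), UGT76E1 (0.11), UGT76E11 (0.28) and UGT85A7 (0.51). UGT73B5 and UGT87A2 stayed past it. In cepr1-1 all 3 higher genes fell short, UGT71C2 at 0.13, UGT76E1 at 0.28 and UGT85A7 at 0.36, and UGT73B5 stayed lower. The pseudocount was added on the linear scale, where 16 is larger than the array medians, so it also shrank differences of genes above them. UGT73B2, above the median on all 3 arrays, fell from 0.65 to 0.41 with CEP1. The pseudocount lowered the shares of measured genes too. Above the floor, 0.593% were at least 1.5-fold higher with CEP1, against 1.57% without the pseudocount. In cepr1-1 the shares were 0.255% against 1.28% higher, and 0.937% against 2.14% lower. The 7 and 3 genes were counted with no floor, for which pseudocount shares are not given here.

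At 2-fold, 4 members were higher with CEP1, against 0.224% of measured genes, and none was lower, against 0.133%. In cepr1-1, 2 members were 2-fold higher, against 0.327%, and 1 was lower, against 0.357%. The median difference of the 51 genes was 0 in both comparisons, as it was over all measured genes, and their mean difference was 0.19 with CEP1 and 0.05 in cepr1-1.

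Above the floor there were 26 members in the CEP1 comparison, of which 6 were at least 1.5-fold higher and none lower, against 1.57% and 1.07% of measured genes above the floor. UGT73B4, UGT76E11 and UGT85A7 passed that floor only through the CEP1 array on which they were higher. In cepr1-1, 24 members were above the floor, with UGT85A7 at least 1.5-fold higher (1.28% of measured genes) and UGT73B5 lower (2.14%). UGT85A7 passed only through the cepr1-1 array.

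**Figure D2:**
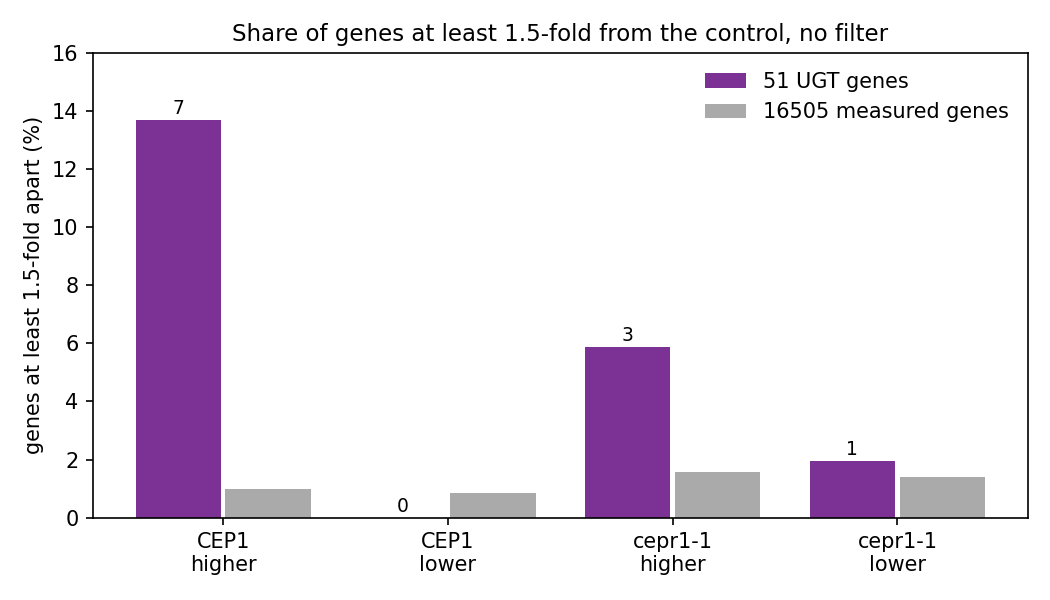
Share of genes (y axis, percent) at least 1.5-fold higher or lower than the control with CEP1 or in cepr1-1, for the 51 UGT genes (purple, number of genes above each bar) and all 16505 measured genes (grey), with no floor. The tallest bar is the 13.7% of UGT genes higher with CEP1, next to 0.994% of measured genes.

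Subfamily 73B held 3 of the 7 genes that were at least 1.5-fold higher with CEP1. Each of its 5 members had a positive difference there, but those of UGT73B1 and UGT73B3 were only 0.08 and 0.11. Of all 51 members, 16 were higher with CEP1 by any amount, 29 were equal and 6 were lower. The matching shares of all measured genes are not given here, so these counts are not read as a lean of the UGT genes. UGT73B5 (AT2G15480), which acts in redox and pathogen responses, was 4.73 in the control, 6.76 with CEP1 and 3.22 in cepr1-1. It lay 4.08-fold above the control with the peptide and 2.86-fold below it in the mutant, with all 3 values at or above the array medians. Between the CEP1 and cepr1-1 arrays it differed 11.6-fold, and 4.91-fold with the pseudocount, with which its differences from the control were 1.55 and -0.75. Its cepr1-1 value of 3.22 lay close to that array's median of 3.11. UGT73B4 (AT2G15490), which can glucosylate breakdown products of the explosive TNT, was 1.92, 3.39 and 2.04 on the control, CEP1 and cepr1-1 arrays. It was high on the CEP1 array alone, and its other values lay under the medians.

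UGT73B2, which glucosylates flavonols in vitro, was 4.51, 5.15 and 4.14, a difference of 0.65 with CEP1 and of -0.36 in cepr1-1. Its difference of 0.65 lay just inside the 1.5-fold limit of 0.585, while UGT74B1 at 0.50 and UGT76B1 at 0.47 lay just outside. UGT73B1 was 4.50, 4.58 and 4.74, and UGT73B3, which acts with UGT73B5 in defence against bacteria, was 2.73, 2.84 and 2.68. The widest of these 4 differences was 0.23, that of UGT73B1 in cepr1-1.

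The other members of family 73 were mostly equal on the 3 arrays. UGT73C1, which also acts on TNT products and on cytokinins, was 3.37 on each, UGT73C2 was 1.97 and UGT73C7 was 1.78. UGT73C6, which glucosylates flavonols and brassinosteroids, was 2.51, 2.65 and 3.05, a difference of 0.54 in cepr1-1 that lay just short of 1.5-fold. A second probe set of UGT73C6 gave the same difference in cepr1-1, 0.54, at 1.24 and 1.78, and both probe sets lay under the array medians throughout. UGT73D1 was 2.65, 2.51 and 2.73.

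UGT87A2 (AT2G30140), which influences flowering time, was the sole measured member of its family. It was 5.50 in the control, 6.98 with CEP1 and 5.16 in cepr1-1. It was 2.78-fold above the control with the peptide, differed by -0.35 in the mutant, and was at or above the median on every array. With UGT73B5 and UGT73B2 it was 1 of 3 genes at least 1.5-fold higher with CEP1 whose values were above the median on both arrays of that comparison.

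In subfamily 85A, 1 of 5 members passed 1.5-fold. UGT85A7 (AT1G22340) was 2.58 in the control, 3.93 with CEP1 and 3.61 in cepr1-1. It was higher on both other arrays, by 1.35 and 1.03, so that the control was the low array for this gene and its control value lay under the median. UGT85A2 was 5.16, 5.39 and 4.83, within 1.5-fold of the control on both. UGT85A4 was 3.73 and UGT85A5 3.84 on all 3 arrays, and UGT85A3 was 1.54, 1.30 and 1.47.

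Family 76 had 8 members, and both of its genes past 1.5-fold were in subfamily 76E. UGT76E11, which acts on flavonoids, was 2.45, 3.32 and 2.72 on the control, CEP1 and cepr1-1 arrays, and only its CEP1 value was above the array median. UGT76E1, which glucosylates a hydroxylated jasmonate, was 1.00, 1.78 and 2.55. Its differences were 0.78 with CEP1 and 1.54 in cepr1-1, and all 3 values were below the medians. UGT76E2 was 1.02 and UGT76E12 2.66 on all 3 arrays. A second probe set of UGT76E12 was 2.50 on each.

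The remaining members of family 76 act on hormones and phenolic acids. UGT76B1, which glucosylates salicylate, isoleucic acid and N-hydroxypipecolic acid, was 2.56 with CEP1 and 2.20 in cepr1-1, which is 0.47 and 0.10 above the control, and all 3 values lay below the medians. The cytokinin N-glucosyltransferase genes UGT76C1 and UGT76C2 were 3.90 and 1.78 on all 3 arrays. UGT76D1, which acts on dihydroxybenzoic acids, was 1.80, 1.74 and 1.80.

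**Figure D3:**
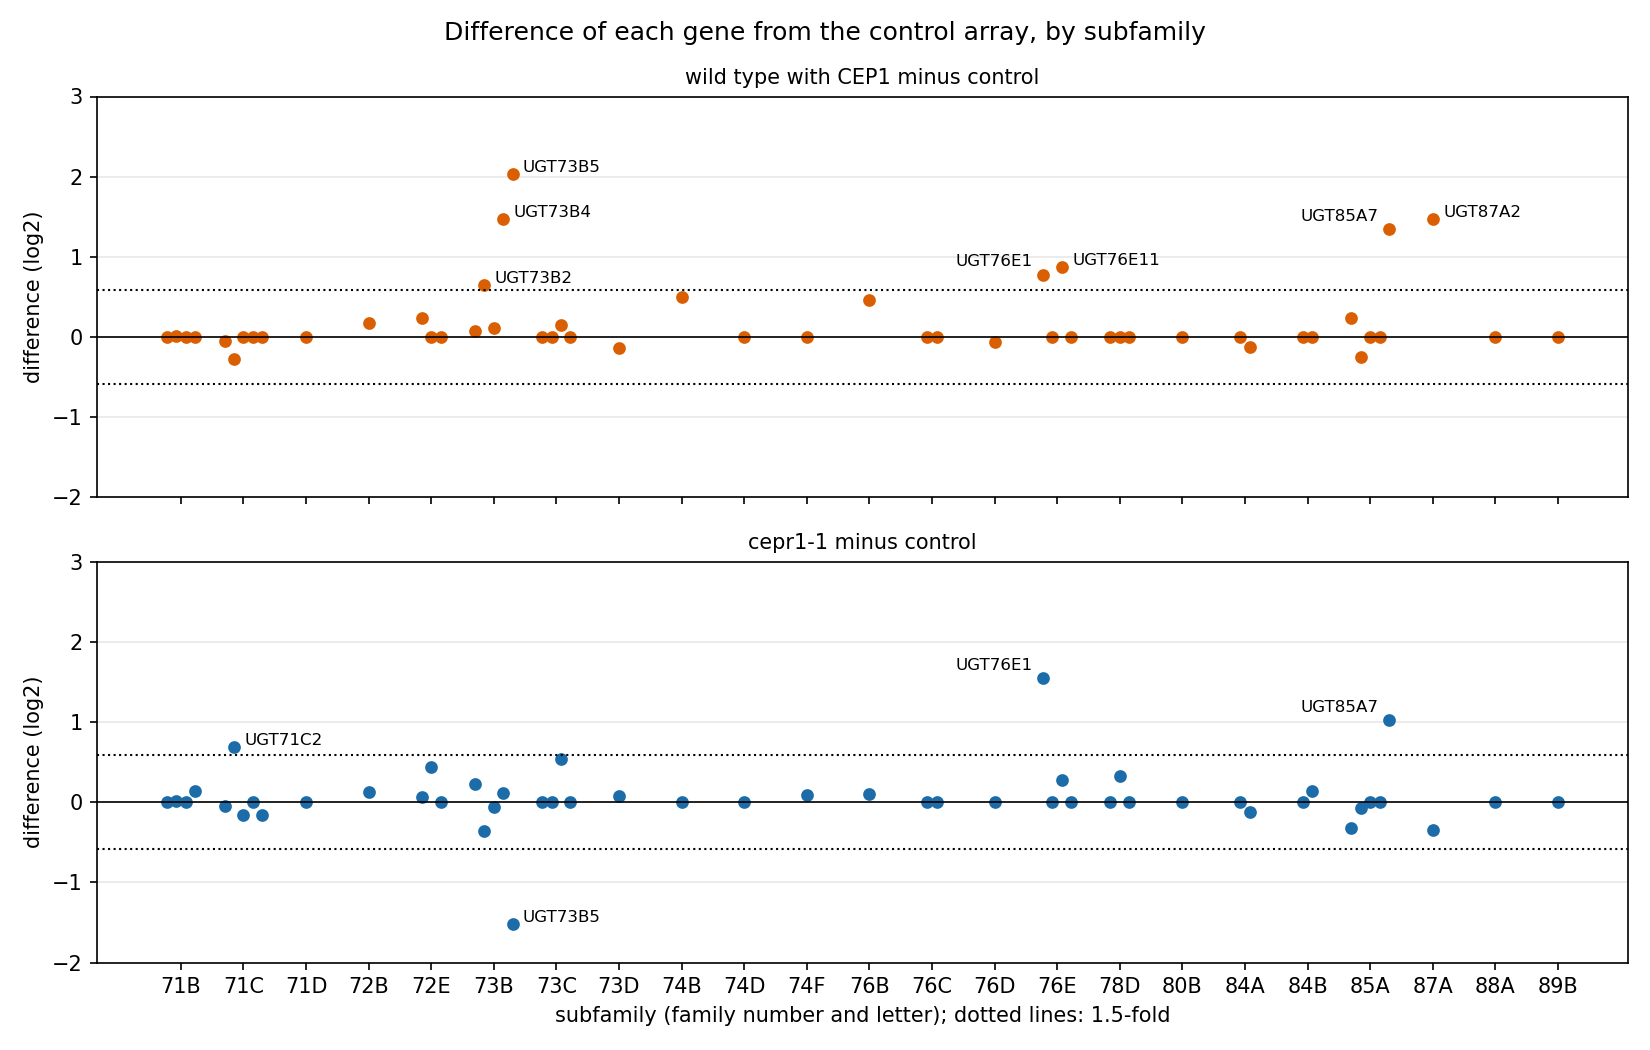
Difference from the control (y axis, log2) of each UGT gene with CEP1 (upper panel) and in cepr1-1 (lower panel), by subfamily (x axis), 1 point per gene and dotted lines at 1.5-fold. With CEP1 the named points are 73B, 76E, 85A and 87A genes, all above the upper line. In cepr1-1, UGT73B5 at -1.51 is below the lower line and UGT71C2, UGT76E1 and UGT85A7 are above the upper one.

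Family 71 had 10 members, with differences from -0.27 to 0.02 with CEP1 and from -0.16 to 0.68 in cepr1-1. Subfamily 71B includes UGT71B6, which makes the glucose ester of abscisic acid and was 3.96 on each array. A second, dimmer probe set of UGT71B6 was 2.26, 2.37 and 2.65. UGT71B1 was 4.17 on all 3 arrays, UGT71B5 was 4.61, 4.62 and 4.62, and UGT71B8 was 2.06, 2.06 and 2.20.

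In subfamily 71C, UGT71C2 was 1.61, 1.34 and 2.30 on the control, CEP1 and cepr1-1 arrays. Its difference of 0.68 in cepr1-1 was the only one of the family past 1.5-fold, and all 3 values were below the medians. UGT71C5, which glucosylates abscisic acid, was 3.37, 3.37 and 3.22, and UGT71C3, which acts on methyl salicylate, was 4.25, 4.25 and 4.09. UGT71C4 was 3.58 and UGT71D1 1.35 on all 3 arrays, and UGT71C1 was 1.30, 1.25 and 1.25.

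The monolignol genes of subfamily 72E, whose enzymes glucosylate lignin precursors and their aldehydes, did not reach 1.5-fold. UGT72E1 was 4.03, 4.26 and 4.09, UGT72E2 was 0.918, 0.918 and 1.35, and UGT72E3 was 0.570 on all 3 arrays. UGT72B3 was 2.40, 2.57 and 2.53. UGT72E1 was the only one of these 4 genes above the medians.

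In family 74, UGT74B1, which adds the glucose in the synthesis of glucosinolates, was 4.86, 5.35 and 4.86. It was 1.41-fold above the control with CEP1 and equal to it in cepr1-1. UGT74D1, which acts on auxins, was 3.37 on all 3 arrays, and a second probe set of it was 1.97 on each. The salicylate glucosyltransferase gene UGT74F1 was 2.99, 2.99 and 3.08.

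The flavonol glycosyltransferase genes of subfamily 78D were equal with CEP1 and in the control. UGT78D1, a rhamnosyltransferase gene, was 2.50 on all 3 arrays and UGT78D3, an arabinosyltransferase gene, was 3.07. UGT78D2, which adds glucose, was 4.17, 4.17 and 4.49, a difference of 0.32 in cepr1-1.

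Family 84 lay below the medians on every array. UGT84A3 and UGT84A4, which make glucose esters of hydroxycinnamates, were 2.66 on all 3 arrays and 0.914, 0.786 and 0.786. The auxin glucosyltransferase gene UGT84B1 was 1.30 on all 3 arrays and UGT84B2 was 2.50, 2.50 and 2.65. Families 80, 88 and 89 had 1 member each, with equal values on the arrays. The sterol glucosyltransferase gene UGT80B1 was 4.58, UGT88A1 was 3.54 and UGT89B1 was 3.73.

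Read by acceptor, 26 members have an acceptor named above or well known for them, foreign chemicals left aside, a grouping made with the values already known. Of these, 3 were past 1.5-fold with CEP1, all upward: the flavonoid genes UGT73B2 and UGT76E11 and the jasmonate gene UGT76E1. In cepr1-1 only UGT76E1 was, also upward. UGT71C2, UGT73B4, UGT73B5, UGT85A7 and UGT87A2, also past 1.5-fold in a comparison, were given no acceptor class. The counts by acceptor therefore depend on which members were classed. The upward shares of measured genes with no floor were 0.994% for CEP1 and 1.58% for cepr1-1. With the pseudocount, UGT73B2 (0.41), UGT76E11 (0.28) and UGT76E1 (0.11) fell short for CEP1. So did UGT76E1 (0.28) for cepr1-1, and its values lay below the medians on all 3 arrays. Equal values on all 3 arrays were found for 11 of the 26, against 54.6% of measured genes. The 3 cytokinin genes (UGT73C1, UGT76C1 and UGT76C2) and the 2 auxin genes (UGT74D1 and UGT84B1) were among the 11. The 3 salicylate genes (UGT71C3, UGT74F1 and UGT76B1) differed by 0 to 0.47 with CEP1.

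Equal values on all 3 arrays occurred for 22 members (43.1%), against 54.6% of measured genes. Among the 24 members above the floor in both comparisons, 12 had equal values, against 49.5% of measured genes above that floor. Many values are also shared between genes: 31 members (60.8%) had a control value that 10 or more other measured genes also had, to every deposited digit, against 58.4% of measured genes. UGT73B5, UGT73B4, UGT73B2, UGT76E1, UGT76E11 and UGT71C2 shared their control value with no other measured gene, whereas that of UGT87A2 was shared with 23 and that of UGT85A7 with 62. What sets these repeated values was not tested, and a difference of 0 is not evidence of unchanged expression.

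Neighbouring copies did not share their differences in all runs. Members within 3 places of the next in the order of protein-coding genes formed 14 runs with 35 members. In 3 runs members were at least 1.5-fold apart from each other in their CEP1 difference, and in 5 runs in their cepr1-1 difference. Both run counts used no pseudocount, and no share for runs of other genes is given. With the pseudocount of 16, the CEP1 differences of UGT85A7, UGT76E11 and UGT76E1 in these runs fell to 0.51, 0.28 and 0.11. The cepr1-1 differences of UGT85A7, UGT76E1 and UGT71C2 fell to 0.36, 0.28 and 0.13. UGT73B5 and UGT73B4 are adjacent. Their CEP1 differences were 2.03 and 1.47, and their cepr1-1 differences were -1.51 and 0.12. With the pseudocount of 16 these were 1.55 and 0.42 with CEP1, and -0.75 and 0.02 in cepr1-1.

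UGT73B3, UGT73B2 and UGT73B1 form another run of 3 adjacent genes, with CEP1 differences of 0.11, 0.65 and 0.08. The adjacent UGT85A7, UGT85A2, UGT85A5 and UGT85A3 had CEP1 differences of 1.35, 0.23, 0 and -0.24, so that 1 of the 4 copies stood apart. UGT76E1 and its neighbour UGT76E2 had 1.54 and 0 in cepr1-1. In the runs UGT76C2 and UGT76C1, and UGT84A3 and UGT84A4, the widest difference was the -0.13 of UGT84A4. Whether close copies share signal on the array was not tested.

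**Figure D4:**
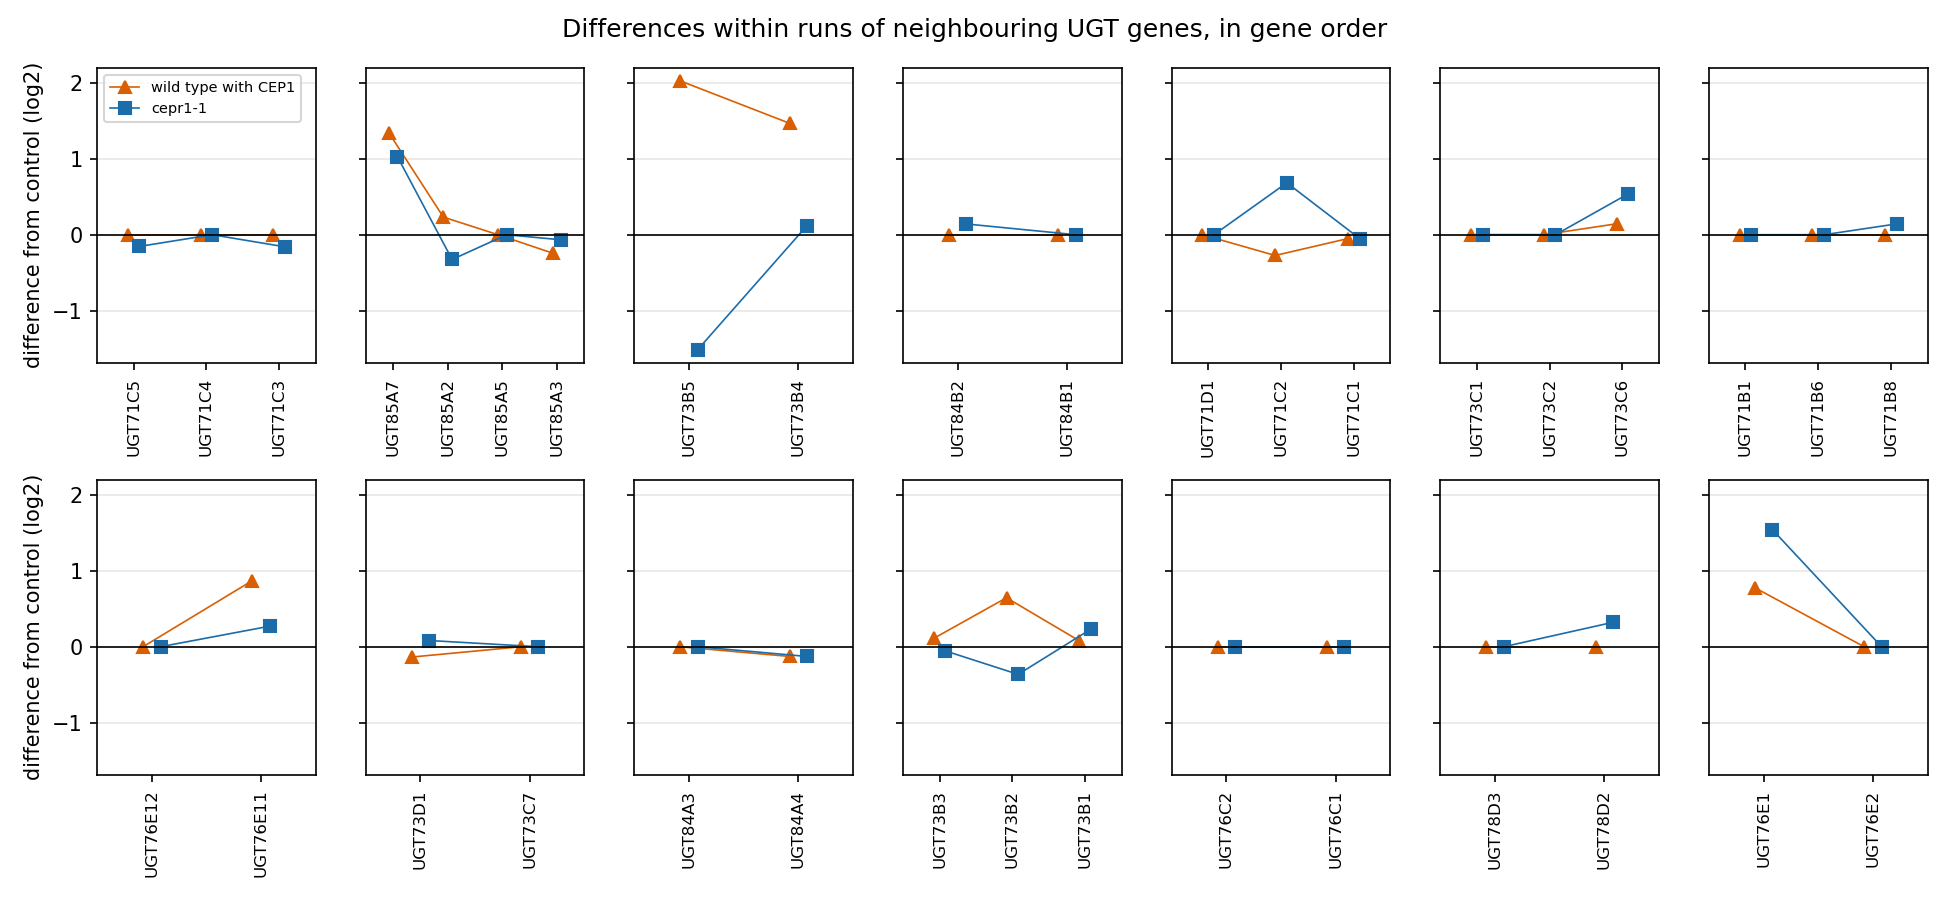
Difference from the control (y axis, log2) with CEP1 (triangles) and in cepr1-1 (squares) for the 35 UGT genes in 14 runs of neighbours, 1 panel per run with genes in genome order (x axis). UGT73B5 and UGT73B4 are both high with CEP1 and part in cepr1-1, and UGT85A7 stands above its 3 neighbours in both. The plotted values use no pseudocount. With a pseudocount of 16 the CEP1 differences of UGT73B5 and UGT73B4 were 1.55 and 0.42.

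Genes with a UGT name only as a synonym were left out of the 51, and 4 of 6 such genes were measured. SGT, the sterol gene also called UGT80A2, was 5.50 on all 3 arrays. GT72B1, also called UGT72B1 and able to act on chlorinated phenols and lignin precursors, was 3.73, and AT5G54010, also called UGT79B6, was 1.35. UF3GT, also called UGT79B1 and part of anthocyanin synthesis, was 1.73, 1.73 and 1.78. The widest difference among the 4 was the 0.05 of UF3GT in cepr1-1. The probe sets that the array annotation gives to both UGT84A1 and another gene were not used among the members.

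Beta-glucosidases, many of which remove glucose from the products of UGTs, had 24 measured genes of 47 named. With CEP1, 2 of the 11 above the floor were at least 1.5-fold higher and none lower, against the 1.57% and 1.07% given above. BGLU28, a gene of the sulfur starvation response, was 4.23, 5.76 and 5.00, and BGLU21 was 3.13, 3.77 and 3.55. In cepr1-1, 3 of the 12 above the floor were higher and none lower, against 1.28% and 2.14%. They were BGLU28, BGLU16 (4.17 in the control and 4.76 in cepr1-1) and ATA27 (2.66 and 3.46), which passed the floor only through the cepr1-1 array. Below the floor, BGLU47 was 3.05, 2.53 and 2.25, lower in cepr1-1 by more than 1.5-fold.

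Glutathione transferases, which act beside UGTs in detoxification, had 14 measured genes of 48. In each comparison 7 were above the floor, and none of those reached 1.5-fold. Below the floor, GSTU26 was 2.21, 1.59 and 2.21, lower with CEP1 by more than 1.5-fold. GSTU20 was 9.84, 10.1 and 9.52. Of hormone-inactivating enzymes, 6 of 20 were measured and none reached 1.5-fold, with WES1, an auxin-conjugating enzyme gene, at 5.17, 5.17 and 4.73. The single measured UDP-sugar gene, USP, was 5.87 on each array. The 4 measured genes of phenylpropanoid and flavonoid synthesis all lay below the medians, with 4CL8 at 2.29, 1.78 and 2.29. No gene of the list for chemical and oxidative stress had a named probe set.

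Markers of other cell types differed in part between the arrays. The 3 measured mesophyll markers of 10 had a log2 summed level of 9.91, 9.80 and 10.2 on the control, CEP1 and cepr1-1 arrays. SBPASE was 7.55, 7.45 and 8.25, its highest value in the mutant. Its difference of 0.69 in cepr1-1 was past 1.5-fold, as for 1 of these 3 markers. Of measured genes above the floor, 1.28% were that much higher. RCA was 9.49, 9.37 and 9.70, and PRK was 5.74, 5.74 and 5.71. The 2 measured epidermis and guard cell markers had a summed level of 7.97, 8.05 and 7.97, within which the guard cell gene FMA was 5.37, 4.86 and 5.37 and the epidermis gene FDH 7.71, 7.88 and 7.71. Their part in the UGT differences was not tested.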

How the data were processed

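The deposited log2 values, 1 per probe set and array, come from Affymetrix Expression Console, which the authors ran in version 1.3 per the submitters' processing notes. The log2 scale was read from the range of the values. The sources used here give no genome build and do not state how background, normalization and probe summary were handled. No further normalization was applied.

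The platform annotation lists 17481 of 38408 probe sets. It gives 1 gene for 16722 and several for 759, which were not used. Current symbols came from the RefSeq gene table of assembly TAIR10.1, where 16574 probe sets were found by gene ID and 96 by locus, while 52 were not found. The table served for names and neighbours. The brightest probe set was kept per locus, which gave 16505 measured genes. Of 58 UGT symbols in the table, 7 had no named probe set of their own. Sequences were not used here.

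A gene counted as called at 1.5-fold or more, with 2-fold beside it. The text accounts for every member and gives 3 array values for members past the limit. The members, lists and acceptor classes were chosen with earlier results of these data known. Alternatives were quantile normalization, a pseudocount of 16, removal of an intensity trend by lowess, the mean of probe sets, no floor and a 2-fold limit. The number of arrays limits the precision. Python 3.11.15, pandas 2.3.3 and statsmodels 0.14.6 were used.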

Additional observations from a re-analysis of the deposited data

How the results depend on the processing

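With CEP1, 6 UGT genes above the floor were at least 1.5-fold from the control, all of them higher. With a pseudocount of 16, added to lessen the weight of low values, the count was 2, UGT73B5 and UGT87A2. The share of measured genes at least 1.5-fold higher also fell, from 1.57% to 0.593%. Where both arrays had to be at or above the median, the count was 3, against 1.31% of measured genes. That alternative was chosen after seeing the data. In cepr1-1 the count of 2 was 1 with the pseudocount, 1 where both arrays had to be above the median and 4 with no floor. With the pseudocount or with both arrays above the median, no gene was higher in cepr1-1 and UGT73B5 was the 1 lower gene. Of measured genes, 0.937% were that much lower with the pseudocount and 1.82% with both arrays above the median. With no floor, 1.58% were higher and 1.39% lower. The other alternatives, including genes named by synonym and centring on the mean, both chosen after seeing the data, kept these counts within 1.5 times. No UGT gene was 1.5-fold lower with CEP1 under any alternative. The median difference stayed within 0.1 of 0 throughout. Over 8 named genes, 96 alternative differences were computed, none past 1.5-fold changed direction, and 8 fell under that limit, each with the pseudocount. The difference of UGT73B5 ranged from 1.55 to 2.03 with CEP1 and from -1.54 to -0.75 in cepr1-1. That of UGT87A2 ranged from 1.21 to 1.48 with CEP1. No background values are given, so it cannot be shown which values, those under the array median among them, exceed background. No paired analysis was possible because each group has 1 array and the results come from no test.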
